A study of Xenopus laevis with 18 samples.

Results

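The somite segmentation genes ripply2.1.S, ripply2.2.S, mespa.L, tbx6.L and meox2.S were followed through explants of the lateral marginal zone of Xenopus laevis embryos, the flank of the gastrula. They were taken as every probe set whose only gene symbol in the array annotation is one of these names. This gave 6 probe sets for 5 of the 11303 genes with a symbol of their own: 1 each for ripply2.1.S, ripply2.2.S, mespa.L and tbx6.L, and a pair for meox2.S, of which the brighter stands for the gene. The suffixes .L and .S mark the homeologs, the copies on the long and short subgenomes of this species.

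Embryos received GFP mRNA (labelled control) or GFP and cyp26 mRNA (labelled RA-depleted) in their 4 blastomeres at the 4-cell stage, cyp26 being an enzyme that degrades retinoic acid (RA). Explants cut at the start of gastrulation were harvested at early gastrula after 1 h in culture, at mid-gastrula after 3 h, both at 20 °C, or as early neurulae after a night at 14 °C, so stage, time in culture and temperature differ together. Each of the 6 groups had 3 Affymetrix arrays, described as biological replicates, and the study 18; how many explants made up a sample is not given in the sources used here. The stated aim was to find targets of RA in lateral mesoderm. Values are deposited log2 intensities from RMA (robust multi-array average), and levels of different probe sets cannot be compared with each other.

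In the presomitic mesoderm, the unsegmented tissue that flanks the notochord, Tbx6 is a T-box activator that switches on Mesp genes at its anterior end. Mesp proteins are basic helix-loop-helix factors that set the next segment border and its front-back polarity. Ripply proteins bind T-box factors and bring in Groucho/TLE corepressors, which ends the Tbx6 programme as a segment forms, and Meox homeobox factors act in the formed somite. RA made by somites opposes FGF and Wnt signals from the tail end, and in Xenopus it is known to act on segmentation genes in the anterior presomitic mesoderm.

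The homeologs of cyp26a1 differed between the labelled arms in opposite directions. The probe set of cyp26a1.S read 13.05 to 13.92 on the 9 arrays labelled control and 8.34 to 9.44 on the 9 labelled RA-depleted. The fitted difference, labelled RA-depleted minus labelled control, was -4.79, -5.34 and -4.14 at the 3 stages in order (log2, SE 0.23 each, limma adjusted p = 7.36e-08, 1.54e-08 and 2.96e-07). For cyp26a1.L it was 1.82, 1.99 and 1.53, which passed only with blocks for array pairs within the stage (adjusted p = 0.0056, 0.00169 and 0.000493, against 0.856, 0.148 and 0.0798 without a block), and 1.78 on average over the stages (SE 0.20, adjusted p = 0.000762 without a block). The reductase gene dhrs3.L, which RA is known to induce, read higher in the labelled RA-depleted arm, by 0.64, 1.47 and 2.98 (SE 0.20 each). It passed at mid-gastrula and early neurula (limma adjusted p = 0.0168 and 2.42e-06). Over 6 fits that each left out 1 array, the mid-gastrula difference ran from 1.32 to 1.64 and its call was lost in 5. The early neurula difference ran from 2.79 to 3.21 and its call was kept. The labels do not say which cyp26 was injected, and whether the labels of the arms are exchanged was not tested. Every arm difference below would change sign if they were. The explants also carried paraxial markers: the mean log2 level of 8 paraxial genes, tbx6.L among them, ran from 7.24 to 7.44 at early gastrula and from 8.06 to 8.93 at early neurula. The mean of 14 lateral and intermediate mesoderm genes ran from 6.98 to 7.29 and from 6.35 to 6.82 at these stages. These are bulk samples, in which fewer cells of a type and less RNA per cell cannot be told apart.

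**Figure D1:**
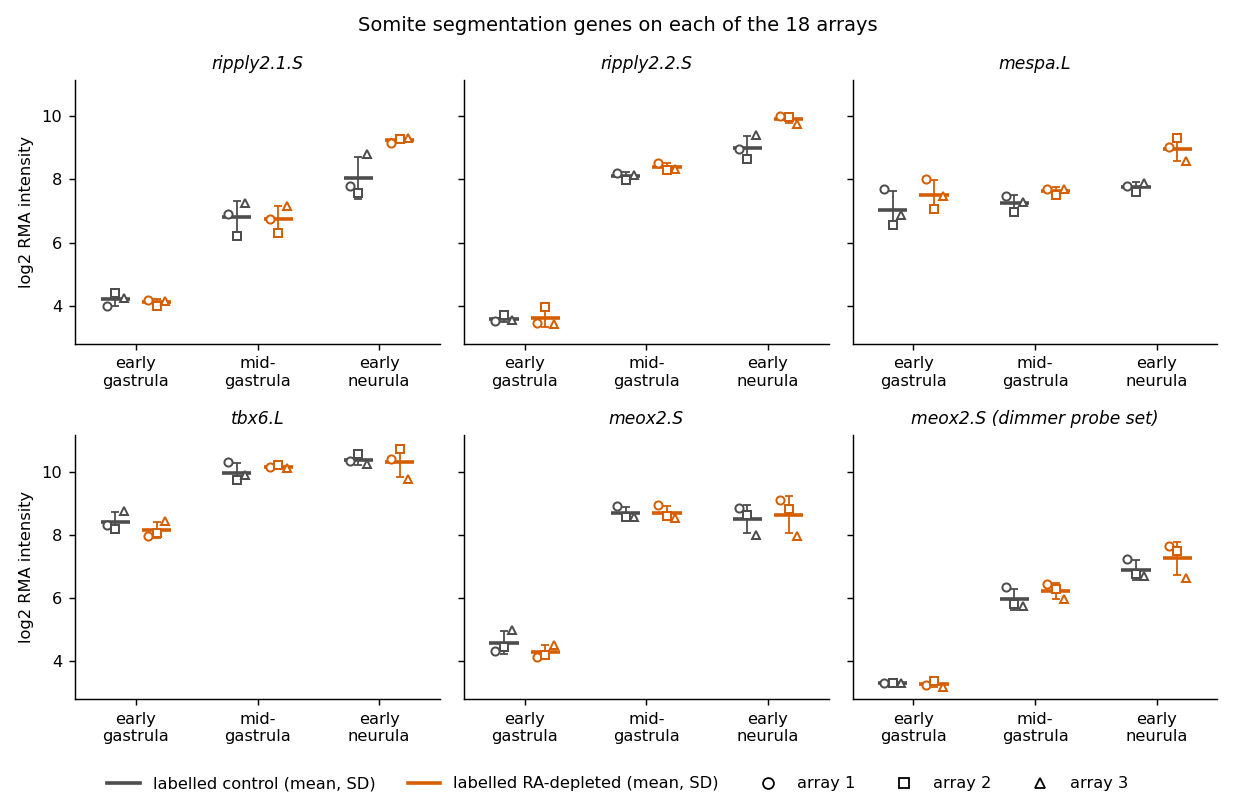
Log2 RMA intensity of the 5 genes on each array (open symbols, by replicate number), with the mean and SD of the 3 arrays of each labelled arm at each stage (n = 3). Levels compare within a panel only: at early neurula the labelled RA-depleted arrays lie above the labelled control arrays for ripply2.1.S, ripply2.2.S and mespa.L and overlap them for tbx6.L and meox2.S.

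The first comparison asked when the genes came on in the explants. In explants labelled control, 4 of the 5 genes rose between early and mid-gastrula, by 1.56 to 4.52 on the log2 scale, and mespa.L did not pass the test. The same 4 rose in explants labelled RA-depleted, by 2.01 to 4.76. Over all 32475 probe sets, 11.2% passed the test as higher in the first of these comparisons and 12.1% in the second. From mid-gastrula to early neurula, 2 of the 5 rose in explants labelled control, ripply2.1.S and ripply2.2.S, and 3 in those labelled RA-depleted, where mespa.L also passed. The background for higher calls at that step was 33.2% and 32.7%, so a share of 2 or 3 in 5 stands near it.

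For the T-box activator tbx6.L the labelled control arrays read 8.30, 8.19 and 8.76 at early gastrula. At mid-gastrula they read 10.30, 9.74 and 9.88, and at early neurula 10.33, 10.57 and 10.23. The gene thus stepped up once: the early and mid-gastrula arrays did not overlap, and the later groups did. The step was 1.56 (SE 0.22, 2.94-fold, limma adjusted p = 2.85e-05), and the change to early neurula, 0.40, did not pass (adjusted p = 0.126). In explants labelled RA-depleted the step was 2.01 (4.02-fold, adjusted p = 2.23e-06), followed by 0.14 (adjusted p = 0.614). Its chromosomal neighbour tbx6r.L, a tbx6-related T-box gene with no annotated gene between them on chromosome 9_10L of the Xenopus_laevis_v10.1 assembly, rose at both steps, by 2.22 and 1.29 in the labelled control arm (adjusted p = 2.28e-06 and 0.000264).

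The Mesp gene mespa.L had no change that passed in the labelled control arm. Its labelled control arrays read 7.70, 6.55 and 6.87 in the early gastrula, 7.49, 6.97 and 7.29 in the mid-gastrula and 7.78, 7.59 and 7.90 in the early neurula group. The early and mid-gastrula groups overlap, and the differences of 0.21 and 0.51 at the successive steps did not pass (SE 0.28 each, adjusted p = 0.559 and 0.13). In the labelled RA-depleted arm the second step was 1.33 (SE 0.28, 2.51-fold, adjusted p = 0.00075). The difference between the arms in that step was 0.82 (SE 0.39) and did not pass (adjusted p = 1).

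The Mesp relatives took other courses. The homeolog mespa.S had no change that passed between the gastrula stages and then rose by 2.12 in the labelled control arm (4.35-fold, adjusted p = 6.15e-06) and by 2.46 in the labelled RA-depleted arm (5.51-fold, adjusted p = 1.26e-06). The paralog mespb.L, separated from mespa.L by 1 annotated gene on chromosome 3L, fell from mid-gastrula to early neurula in both arms, with differences of -1.11 and -1.12 (adjusted p = 0.00575 and 0.00545). Its earlier differences, -0.95 and -0.82, passed in the values as deposited (adjusted p = 0.0175 and 0.0361) and were lost under median centring (-0.57 and -0.44, adjusted p = 0.127 and 0.228) and under repeated quantile normalization (-0.69 and -0.62, adjusted p = 0.085 and 0.123).

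Both Ripply genes, the corepressor adaptors, rose at both steps. For ripply2.1.S the labelled control arrays read 3.99, 4.42 and 4.25 in the early gastrula, 6.92, 6.21 and 7.26 in the mid-gastrula and 7.80, 7.56 and 8.81 in the early neurula group. No array of a later stage lay within the range of an earlier one. The steps were 2.58 (SE 0.30, 5.98-fold, adjusted p = 4.51e-06) and 1.25 (SE 0.30, 2.38-fold, adjusted p = 0.0021).

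For ripply2.2.S, which adjoins ripply2.1.S on chromosome 5S with no annotated gene between them, the labelled control arrays read 3.51, 3.70 and 3.55, then 8.21, 7.97 and 8.14, then 8.95, 8.65 and 9.40. It had the largest gastrula step of the 5 genes, 4.52 (SE 0.17, 23.0-fold, adjusted p = 1.08e-10), followed by 0.90 (SE 0.17, 1.86-fold, adjusted p = 0.000315). No detection calls come with these values, so fold changes from the early gastrula levels of the Ripply genes may be understated. In explants labelled RA-depleted the steps of ripply2.1.S were 2.62 and 2.51 (6.16-fold and 5.69-fold) and those of ripply2.2.S 4.76 and 1.52 (27.2-fold and 2.88-fold) and all passed. The homeolog ripply2.2.L also rose at both steps, by 3.03 and 0.60 in the labelled control arm (adjusted p = 5.46e-08 and 0.0319).

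The homeobox gene meox2.S, a factor of the formed somite and its muscle and connective tissue in mouse, came on in 1 step. Its labelled control arrays read 4.32, 4.45 and 5.0 in the early gastrula, 8.92, 8.56 and 8.56 in the mid-gastrula and 8.86, 8.64 and 8.0 in the early neurula group. The last 2 groups overlap and lie far above the first. The first lies below the median level of that group over all probe sets, 5.88, so fold changes from it may be understated as well. The gastrula step was 4.09 (SE 0.27, 17-fold, adjusted p = 2e-08), or 4.41 in the labelled RA-depleted arm (21.2-fold, adjusted p = 8.76e-09), and the later changes of -0.18 and -0.06 did not pass (adjusted p = 0.595 and 0.857). The dimmer probe set of meox2.S differed at the later step: there it rose, by 0.93 in the labelled control arm and 1.03 in the labelled RA-depleted arm (adjusted p = 0.00265 and 0.00125). Whether meox2.S changed after mid-gastrula therefore depends on the probe set.

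**Figure D2:**
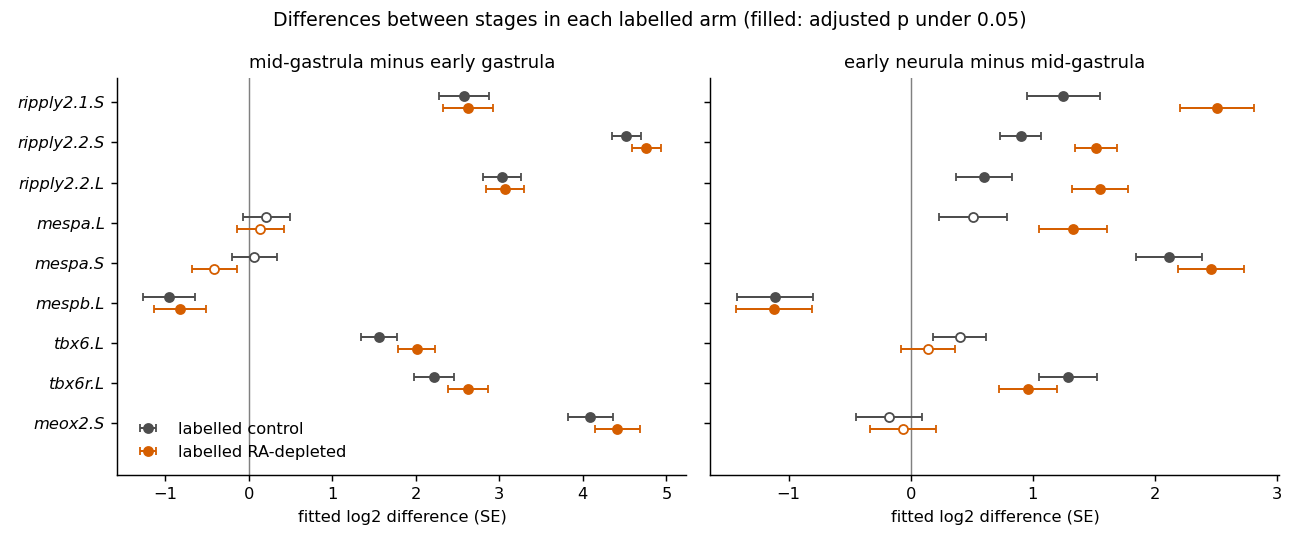
Fitted log2 differences between successive stages in each labelled arm, with limma's SE, for the 5 genes and 4 relatives. Filled points passed an adjusted p of 0.05: between the gastrula stages tbx6.L, meox2.S and both Ripply genes passed in both arms and mespa.L in neither.

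The size of the gastrula changes depends on the scale. In the labelled control arm the median over all probe sets of the fitted difference between early and mid-gastrula was -0.193, while the median level went from 5.88 to 5.49, and 3652 probe sets were called higher and 12408 lower. Median centring, which removes the change in the median level, turned these counts into 12647 higher and 5430 lower, and repeated quantile normalization into 6121 higher and 7198 lower. The 4 rising genes rose under each of these scalings in both arms. Under median centring mespa.L reached 0.60 in the labelled control arm (adjusted p = 0.0726), still short of the threshold.

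The second comparison, which the study's title puts first, was between the labelled arms. The genes ripply2.1.S, ripply2.2.S and mespa.L, 3 of the 5, read higher on the arrays labelled RA-depleted at early neurula, by 0.91 to 1.21 on the log2 scale (1.88-fold to 2.32-fold), and their arms did not overlap. By the test that ignores the pairing of arrays, 1 of the 5, ripply2.2.S, passed as higher, against 0.373% of all probe sets. Arrays of the same stage and number resembled each other, and with the number as a block 3 of 5 passed as higher against 0.81%, and with a block for each pair within its stage 3 of 5 against 2.47%. No overlap with the labelled RA-depleted arm higher was seen for 4.4% of all probe sets. The 5 genes were chosen with earlier results of these data known, and the Ripply genes adjoin each other. The shares are therefore no test of the 5 as a set. At neither gastrula stage did any of the 5 pass in limma's test with or without a block. None of them had an unadjusted p under 0.05 without one. Of all probe sets, 0.00308% passed at early gastrula and 0.0185% at mid-gastrula.

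At early neurula ripply2.1.S read 7.80, 7.56 and 8.81 on the labelled control arrays and 9.16, 9.29 and 9.31 on the labelled RA-depleted arrays. The latter were tight (9.25 ± 0.08, SD, n = 3) and all above the former (8.05 ± 0.66), of which array 3 lay closest. The difference was 1.20 (SE 0.30, 2.29-fold). It did not pass without the block (limma adjusted p = 0.145) and passed with it (adjusted p = 0.0227, or 0.00583 with blocks within the stage). Without labelled control array 3 it was 1.57 (adjusted p = 0.0112). At early and mid-gastrula the arms overlapped, with differences of -0.10 and -0.06 (SE 0.30 each).

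The adjoining ripply2.2.S read 8.95, 8.65 and 9.40 in the labelled control arm and 9.99, 9.98 and 9.76 in the labelled RA-depleted arm. All 3 of the latter were above all 3 of the former. The difference was 0.91 (SE 0.17, 1.88-fold) and passed without the block (limma adjusted p = 0.0236), with it (adjusted p = 0.0205) and with blocks within the stage (adjusted p = 0.00659). The call was lost without array 1 or array 2 of either arm (differences of 0.73 to 0.88, adjusted p = 0.0899 to 0.124) and in a fit to the 6 early neurula arrays alone (adjusted p = 0.596). At mid-gastrula the arms did not overlap either, at 8.21, 7.97 and 8.14 against 8.53, 8.29 and 8.33, but the difference of 0.28 (SE 0.17) did not pass (adjusted p = 1). For comparison, 3.08% of all probe sets lay in that order at mid-gastrula without overlap. At early gastrula the difference was 0.04.

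Several marker lists lay to 1 side of 0 in the same comparison at mid-gastrula. The 8 paraxial markers, tbx6.L among them, had 8 of 8 differences above 0 with a median of 0.44, from mean levels of 8.55, 7.86 and 7.57 on the labelled control arrays and 8.41, 8.43 and 8.44 on the others. Of 12 epidermis markers 11 were above 0 (median 0.43) and of 12 endoderm markers 1 (median -0.28). Of 14 lateral and intermediate mesoderm markers 2 were above 0 (median -0.11), and of all 11303 genes 5822 were. The epidermis means were 5.15 to 5.42 in the labelled control arm and 5.3 to 6.56 in the other, and the endoderm means 9.94 to 10.24 and 9.57 to 9.98. None of these markers passed in limma's test. An unadjusted p under 0.05 was found for 2 paraxial, 0 epidermis, 1 endoderm and 0 lateral and intermediate markers. Over all 11303 genes it was found for 239. In the remaining lists 5 of 7 axial, 3 of 7 ventral and blood, 10 of 15 neural plate and 3 of 7 neural crest markers were above 0. Their medians were 0.28, -0.02, 0.04 and -0.06. An unadjusted p under 0.05 in limma was found for 2, 0, 3 and 1 of them, in that order. The part of these markers in the mid-gastrula differences of ripply2.2.S (0.28) and mespa.L (0.39) was not tested.

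The Mesp gene mespa.L read 7.78, 7.59 and 7.90 in the labelled control arm and 9.03, 9.31 and 8.57 in the labelled RA-depleted arm at early neurula. These did not overlap, and the difference was 1.21 (SE 0.28, 2.32-fold). It did not pass without the block (limma adjusted p = 0.0968) and passed with it (adjusted p = 0.0171, or 0.00154 with blocks within the stage). Its array of the labelled RA-depleted arm was the higher in all 9 same-numbered pairs, at every stage, as was the case for 0.985% of all probe sets. At early gastrula the labelled RA-depleted arrays read 8.0, 7.05 and 7.46 and overlapped the other arm (difference 0.46, SE 0.28), and at mid-gastrula they read 7.71, 7.51 and 7.71 and did not (0.39, SE 0.28). The mid-gastrula reading of 7.51 lay only just above the highest labelled control array, and 3.08% of all probe sets lay in that order without overlap. The early gastrula difference was 0.22 without labelled RA-depleted array 1 or labelled control array 2 and 0.80 without labelled control array 1, and the mid-gastrula difference was 0.25 without labelled control array 2. Averaged over the stages, mespa.L differed by 0.69 (SE 0.16), which passed with the block (limma adjusted p = 0.0346, or 0.00345 with blocks within the stage) and not without it (adjusted p = 0.228). The same average was 0.41 for ripply2.2.S, which passed only with blocks within the stage (adjusted p = 0.03, against 0.117 with the number as the block and 0.24 without). Of all probe sets, 0.0801%, 0.299% and 1.31% passed as higher on average over the stages without a block, with the number as the block and with blocks within the stage.

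**Figure D3:**
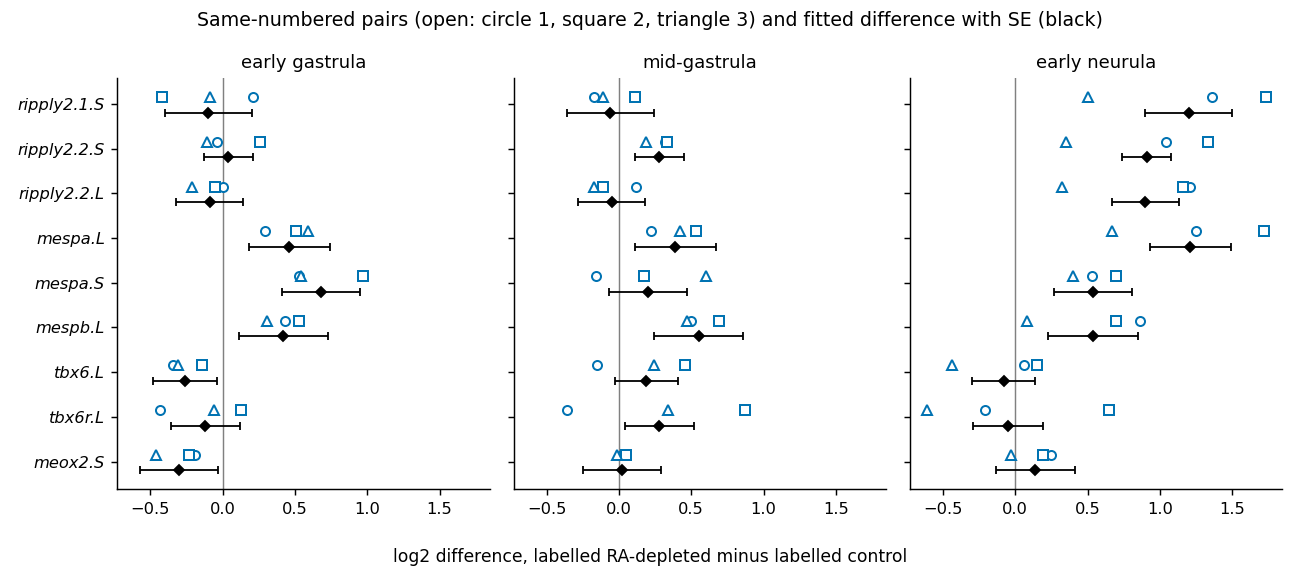
Log2 difference of each same-numbered pair of arrays, labelled RA-depleted minus labelled control (open symbols), and the fitted difference with limma's SE (black), by stage. At early neurula every pair of the Ripply and Mesp genes lies above 0, with fitted differences of 1.20, 0.91 and 1.21 for ripply2.1.S, ripply2.2.S and mespa.L, while tbx6.L (-0.08) and meox2.S (0.14) lie at 0 within their SE.

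The upstream T-box gene showed no such difference. At early neurula tbx6.L read 10.33, 10.57 and 10.23 in the labelled control arm and 10.39, 10.72 and 9.78 in the labelled RA-depleted arm, and the groups overlapped. The differences were -0.26, 0.19 and -0.08 at the successive stages (SE 0.22 each, limma adjusted p = 1 for each). For meox2.S they were -0.30, 0.02 and 0.14 (SE 0.27 each, adjusted p = 1 for each), from early neurula arrays of 8.86, 8.64 and 8.0 against 9.11, 8.82 and 7.98. Its dimmer probe set gave -0.04, 0.26 and 0.36 (SE 0.23 each), also short of the threshold. With blocks within the stage the SE of meox2.S fell to 0.07, and its early neurula difference still did not pass (adjusted p = 0.366).

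At early neurula array 3 of the labelled RA-depleted arm read low for several genes, though not for ripply2.1.S, where it read highest of its group. The labelled RA-depleted array 3 read lowest of its group for tbx6.L, meox2.S, mespa.L and ripply2.2.S, and its mean over the 8 paraxial markers was 8.06, against 8.65 and 8.93 on arrays 1 and 2 and 8.63 to 8.69 in the labelled control arm. Pair 3 gave the smallest difference for both Ripply genes and mespa.L, and for all of them labelled control array 3 read highest of its group. For tbx6.L and meox2.S labelled control array 3 instead read lowest of its group. For meox2.S it read nearly as low as labelled RA-depleted array 3. Without labelled control array 3 the difference of ripply2.1.S was 1.57. Without labelled RA-depleted array 3 the early neurula differences were 1.17 for ripply2.1.S, 0.98 for ripply2.2.S, 1.41 for mespa.L, 0.18 for tbx6.L and 0.47 for meox2.S. Among them only ripply2.2.S passed (limma adjusted p = 0.0373). For meox2.S the low labelled control array 3 stayed in that fit without its partner. With all early neurula arrays and no block, 0 of the 8 paraxial markers passed in limma's test, their median difference was -0.07 and 3 of 8 were above 0. The mean of the 14 lateral and intermediate markers was 6.35 to 6.52 in the labelled control arm and 6.68 to 6.82 in the other, with 1 marker called higher. Of 12 endoderm markers 6 were above 0 (median -0.02). With blocks within the stage limma called 5 of 12 endoderm, 3 of 14 lateral and intermediate and 1 of 15 neural plate markers. It called 0 in the paraxial, axial, ventral, epidermis and neural crest lists, and 557 of all 11303 genes. The part of these markers in the Ripply and Mesp differences was not tested.

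Whether the arm difference itself grew between mid-gastrula and early neurula was tested as an interaction. It grew by 1.26 for ripply2.1.S (SE 0.42), 0.63 for ripply2.2.S (SE 0.24) and 0.82 for mespa.L (SE 0.39), and none passed in limma (adjusted p = 1 each; 0.304, 0.765 and 0.76 with the block; 0.064, 0.238 and 0.136 with blocks within the stage). The unadjusted p was under 0.05 for 2 of the 5 genes, and for 286 of all 11303 genes. Over all probe sets 0.0585% passed. A larger difference at early neurula than at mid-gastrula is therefore not shown for any of the 5 genes.

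**Figure D4:**
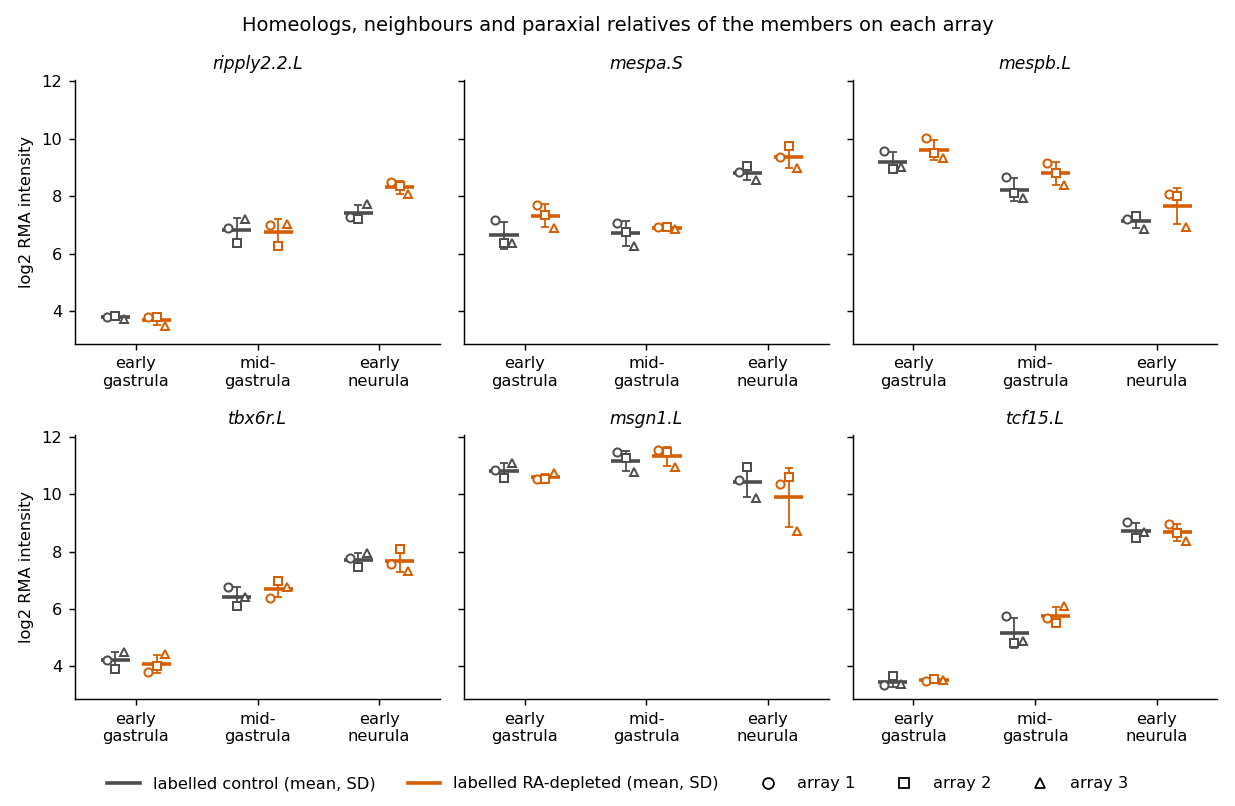
Log2 RMA intensity of 6 relatives on each array, with the mean and SD of the 3 arrays of each labelled arm (n = 3). At early neurula the arms separate for ripply2.2.L (7.21 to 7.74 against 8.07 to 8.50) and overlap for mespa.S, mespb.L, tbx6r.L, msgn1.L and tcf15.L.

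The homeologs and paralogs of the 3 genes lay on the same side at early neurula. The homeolog ripply2.2.L read 7.29, 7.21 and 7.74 against 8.50, 8.36 and 8.07, with no overlap, and differed by 0.90 (SE 0.23, limma adjusted p = 0.146, 0.0568 with the block and 0.00629 with blocks within the stage). For mespa.S the arrays read 8.84, 9.05 and 8.57 against 9.37, 9.75 and 8.97, and the arms overlapped. The difference of 0.54 (SE 0.27) passed only with blocks within the stage (limma adjusted p = 0.0444, against 0.951 without a block). For mespb.L the arrays read 7.2, 7.31 and 6.86 against 8.06, 8.01 and 6.93, and the arms overlapped as well. Its difference of 0.54 (SE 0.31) also passed only with blocks within the stage (limma adjusted p = 0.033, against 1). Like mespa.L, mespb.L was higher in all 9 same-numbered pairs, the order held by 0.985% of all probe sets. Its early neurula difference was 0.35 without labelled RA-depleted array 1 and 0.91 without array 3 of that arm (adjusted p = 0.332), and that of mespa.S was 0.35 without labelled RA-depleted array 2. By contrast tbx6r.L differed by -0.05 and tcf15.L, a basic helix-loop-helix gene of the epithelial somite, by -0.06, and msgn1.L, a presomitic mesoderm gene downstream of Wnt and T-box factors, by -0.55 (SE 0.39, adjusted p = 1).

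The rest of the segmentation machinery was described through 4 lists, leaving out the 5 genes. At early neurula limma called 0 of 26 Notch and segmentation clock genes (0 with an unadjusted p under 0.05), 0 of 26 segment boundary genes (4) and 0 of 19 somite derivative genes (4). An unadjusted p under 0.05 was found for 653 of all 11303 genes and for 9 of the presomitic mesoderm and wavefront list. Among 36 presomitic mesoderm and wavefront genes 1 was higher and 1 lower, dhrs3.L, a retinaldehyde reductase that RA is known to induce (2.98, SE 0.20, adjusted p = 2.42e-06), and cyp26a1.S. Median differences were 0.01, 0.10, 0.10 and -0.04 in that order, against 0.01 over all 11303 genes, of which 0.469% were called higher and 0.0973% lower. With blocks within the stage 557 of all genes were called, and the lists gave 1, 6, 1 and 9. The 6 boundary genes were ripply2.2.L, mespa.S and mespb.L, the cadherins cdh11.S (0.54) and cdh2.L (0.35), and cer1.S (-0.34), a secreted antagonist also among the endoderm markers. The 9 wavefront genes included cyp26a1.L (1.53), the phosphatase homeologs dusp6.L (0.67) and dusp6.S (0.63), the RA receptor rara.L (0.66), axin2.L (-0.42), lef1.S (-0.33) and tbxt.S (-0.55). Others of the list did not pass there, among them wnt3a.S (0.05), wnt8a.L (0.03), wnt5a.S (-0.14), wnt11.S (-0.04), spry2.L (-0.04) and spry2.S (0.03). Some that did not pass had differences as large as those called. These were snai2.S (-0.62), msgn1.L (-0.55), msgn1.S (-0.45), and tbxt.L (-0.53) and axin2.S (-0.36), the homeologs of called genes.

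**Figure D5:**
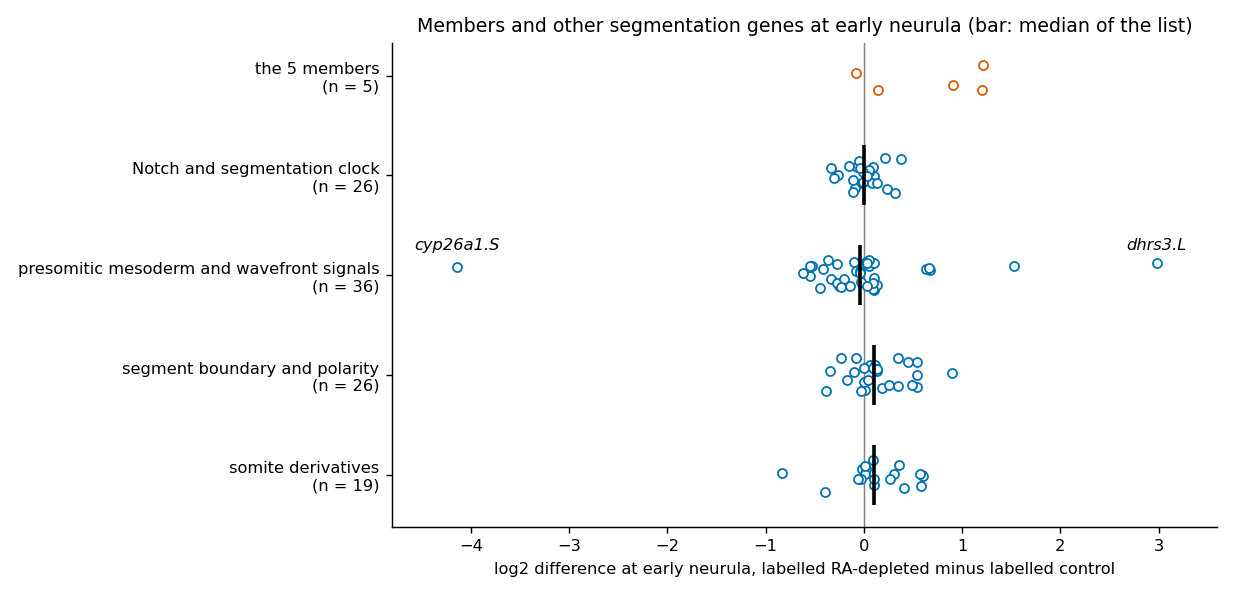
Log2 difference at early neurula, labelled RA-depleted minus labelled control, of the 5 genes and of the other genes in 4 segmentation lists, 1 point per gene, with the median of each list as a bar (0.01, -0.04, 0.10 and 0.10 from top to bottom). Most points lie near 0. Farthest from it are cyp26a1.S (-4.14), dhrs3.L (2.98) and cyp26a1.L (1.53), while ripply2.1.S, ripply2.2.S and mespa.L lie at 0.91 to 1.21.

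Over time in the labelled control arm, these lists changed in both directions. From early to mid-gastrula 9 Notch and clock genes rose and 7 fell, led by hes5.1.L (2.17), and 9 wavefront genes rose and 10 fell, among them wnt11.S (2.35) and fgf3.L (-1.92). Among the boundary genes 9 rose and 9 fell, with N-cadherin cdh2.L (4.16) and its homeolog cdh2.S (3.25) changing most, and 4 somite derivative genes rose and 1 fell, led by pax3.S (1.84) and tcf15.L (1.69). Over all genes 11.7% rose and 39.3% fell. Median centring changed the 4 counts to 13 and 5, 18 and 4, 13 and 3, and 8 and 1. The same scaling turned the calls over all probe sets from mostly lower to mostly higher, as given above. The centred counts therefore cannot be read against the shares of all genes in the values as deposited. From mid-gastrula to early neurula 10 of 19 somite derivative genes rose and 4 fell, with tcf15.L at 3.56 and the myogenic factor myod1.L at 2.04, against 31.7% and 31.6% of all genes. At that step 8 Notch and clock genes rose and 5 fell, with hes7.1.L, a clock repressor, at -2.98. Of the wavefront genes 13 rose and 10 fell, and of the boundary genes 9 rose and 8 fell, with the secreted antagonist cer1.S at -5.06. The gene cer1.S is also among the 12 endoderm markers. Their labelled control means ran from 9.94 to 10.24 at mid-gastrula and from 8.92 to 9.15 at early neurula.

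Of the 5 genes mespa.L was the least like the others by correlation over the 18 arrays, before group means were removed. Over the 18 arrays, where stage sets most of the variation and arrays of a number are alike, Pearson's r was 0.959 between ripply2.1.S and ripply2.2.S and 0.973 between tbx6.L and meox2.S. Across these pairs it was 0.956 for ripply2.2.S with meox2.S, 0.95 for ripply2.2.S with tbx6.L, 0.88 for ripply2.1.S with tbx6.L and 0.855 for ripply2.1.S with meox2.S, and mespa.L gave 0.422 (meox2.S) to 0.702. With group means removed r was 0.554 between the Ripply genes and 0.766 between tbx6.L and meox2.S. Across these pairs it was -0.0816 for ripply2.2.S with meox2.S, -0.0491 for ripply2.2.S with tbx6.L, -0.0861 for ripply2.1.S with tbx6.L and -0.307 for ripply2.1.S with meox2.S. For mespa.L it was -0.0309 with ripply2.2.S, 0.0857 with meox2.S, 0.166 with ripply2.1.S and 0.265 with tbx6.L. Of all genes, those most like each of them by r over the 18 arrays were ssr1.L, LOC100137623 and pdlim4.L for ripply2.1.S (0.979 to 0.981), ripply2.2.L, c3.L and cdh2.L for ripply2.2.S (0.988 to 0.991), and pars2.L, epn2.L and ptn.L for tbx6.L (0.979 to 0.984). For meox2.S they were arhgef2.S, cdc42se2l.S and rgs10.L (0.984 to 0.988). For mespa.L the closest were ambp.L, pgam2.L and mdn1.L, at 0.843 to 0.856 the lowest of the 5.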

How the data were processed

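RNA from 18 samples was measured on Affymetrix arrays. The deposited log2 values were made by the authors with RMA (affy package, per the submitters' processing notes); versions and the arrays normalized together are not given in the sources used here. Of 32635 probe sets, 160 controls were left out and 32475 tested; array medians were 5.47 to 5.91. For a gene with several probe sets the brightest stood. Limma 3.58.1 (R 4.3.3) fitted 6 group means over all arrays, with Benjamini-Hochberg adjustment within a contrast and a threshold of 0.05; fold is 2 to the difference. The number of arrays limits precision.

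Deviations from the group means correlated between same-numbered arrays of a stage at 0.637 to 0.838 (9 pairs) and other numbers at -0.481 to -0.113, so the numbers pair the samples; the labels do not say what a number shares. The replicate number, or each stage and number, was then a block. Alternatives were scaling, the omission of dim probe sets (kept if 3 or more arrays read at least 6), variance model, array weights, the stage's arrays alone, and omission of each array in turn. A simulation with known changes tested the script.

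Members and lists were chosen with earlier results of these data known. Named besides the members were homeologs and paralogs, msgn1, tcf15, hes7 and dll1, list members that passed (at most 6 per list and contrast, by size), and the 3 genes most like each member. List members named for a call with blocks within the stage were chosen after their values were seen. Gene order came from the Xenopus_laevis_v10.1 table.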

Additional observations from a re-analysis of the deposited data

Results flagged for a closer look

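The presomitic mesoderm gene msgn1.L moved in opposite directions at successive stages in every same-numbered pair. Its labelled RA-depleted array was the lower of each pair at early gastrula and at early neurula and the higher of each pair at mid-gastrula. The arm difference was -0.22, 0.15 and -0.55 at the successive stages (SE 0.39 each), and that of the homeolog msgn1.S -0.11, 0.31 and -0.45 (SE 0.41 each). For msgn1.L it changed by 0.37 from early to mid-gastrula and by -0.70 from mid-gastrula to early neurula (log2). The share of all probe sets with such an order was not counted. The consistency over pairs was not tested; limma's interaction did not pass for either step (SE 0.55, adjusted p = 1 each; 0.863 and 0.204 with blocks within the stage). At early neurula msgn1.L read 10.49, 10.96 and 9.87 in the labelled control arm and 10.36, 10.60 and 8.72 in the other, so array 3 was lowest in both.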

How the results depend on the processing

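Pairing raised the counts of called probe sets in the arm differences. With the replicate number as a block the arm differences gave 2 probe sets at early gastrula (1 without), 12 at mid-gastrula (6), 370 at early neurula (138), 171 for the mean over stages (28) and 53 for the change from mid-gastrula to early neurula (19), and with blocks within the stage 12, 61, 1405, 924 and 299. The early neurula arrays alone gave 6 and the mid-gastrula arrays alone 3. Array weights gave 46 for the mean over stages. The filter on dim probe sets, which tests fewer, gave 8 for the late change and 10613 for the gastrula step of the labelled control arm (16060 without). Leaving out each array in turn gave 1 to 2, 2 to 5, 99 to 218, 16 to 51 and 7 to 35. With array weights ripply2.1.S and mespa.L passed at early neurula (1.31 and 1.35, limma adjusted p = 0.0432 and 0.0411). The share of all probe sets called at early neurula with array weights is not given here, so these calls stand without a background. The block changed no other call of the 5 genes than those given beside them.

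Differences near 0 changed sign with the setting, the probe set or the arrays used. With array weights tbx6.L gave 0.05 at early neurula. Without weights the dimmer probe set of meox2.S gave 0.19 for the mean over stages and 0.93 and 1.03 for the late step. There the brighter probe set gave -0.05, -0.18 and -0.06. Leaving out 1 array, the arm differences of ripply2.1.S ran from -0.22 to 0.00 at early gastrula and -0.35 to 0.17 at mid-gastrula, of ripply2.2.S from -0.13 to 0.13 at early gastrula, of tbx6.L from -0.29 to 0.18 at early neurula and -0.12 to 0.03 for the mean, and of meox2.S from -0.10 to 0.14 at mid-gastrula, -0.11 to 0.47 at early neurula, -0.13 to 0.06 for the mean and -0.13 to 0.44 for the late change. The gastrula step of mespa.L ran from -0.03 to 0.54 (labelled control) and -0.09 to 0.39 (labelled RA-depleted). The late step ran from -0.08 to 0.39 for tbx6.L (labelled RA-depleted) and from -0.36 to 0.07 and -0.30 to 0.27 for meox2.S. The cause of these changes was not tested.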
